A study of Mus musculus with 9 samples.

Results

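The mRNAs of 8 genes whose protein products set how fast MYC is degraded were followed in mouse embryonic fibroblasts (MEFs) sorted for low or for high MYC. The genes were taken by name from the deposited table, and all 8 of 8 were found among its 19769 genes. Fbxw7, Skp2, Huwe1 and Stub1 encode ubiquitin ligases or their substrate receptors, Usp28, Usp36 and Usp37 encode deubiquitinases, and Gsk3b encodes a kinase. The MEFs were primary cells from mid-gestation embryos homozygous for Myc-Egfp, in which the endogenous Myc gene carries a C-terminal EGFP. Cells of both groups had received 20 µM of MG-132, a proteasome inhibitor, for 6 h and were then sorted by GFP into a low and a high pool, so that MYC protein itself was the sorting criterion. The sorted cells were plated overnight before RNA was extracted, and both groups therefore shared the genotype, the drug and the replating. Each group had 2 libraries, which the study describes as technical replicates, so that the p-values below measure only the spread between libraries. Other samples of the series were used only for the promoters of these genes, namely FUBP1 ChIP-seq and nuclease-accessible chromatin (TACh-seq) of primary MEFs. The TACh-seq samples came from wild-type MEFs and from Fubp1-knockout MEFs with siRNA knockdown of Fubp2.

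MYC is a short-lived transcription factor. GSK3 phosphorylates a threonine in MYC box I once a neighbouring serine has been phosphorylated, and the doubly marked site is bound by FBXW7, the substrate receptor of an SCF (SKP1, CUL1, F-box) ubiquitin ligase. SKP2 is another F-box receptor that binds MYC, HUWE1 is a very large HECT-domain ligase, and STUB1 (also called CHIP) is a U-box ligase that docks on HSP70 and HSP90 and delivers their clients for degradation. Deubiquitinases remove the ubiquitin again: USP28 reaches MYC through FBXW7, USP36 acts in the nucleolus, and USP37 acts without FBXW7. What follows concerns the mRNAs of these enzymes, not their proteins or their activity.

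The promoter sequences below are shown because deposited accessible-chromatin reads lie around the starts they belong to, and because they differ in the common promoter elements they hold. They come from the RefSeq promoter table for GRCm38.p6 (mm10), which has 11 windows for the 8 genes, and are written 5′ to 3′ in the direction of the gene up to the base before the annotated start or before the first annotated exon. Capitals mark the E-box CACGTG, which MYC and MAX bind, the CCAAT box (CCAAT or its complement ATTGG) and the GC box (GGGCGG or its complement CCGCCC).

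Fbxw7, chr3:84951961-84952145, plus strand: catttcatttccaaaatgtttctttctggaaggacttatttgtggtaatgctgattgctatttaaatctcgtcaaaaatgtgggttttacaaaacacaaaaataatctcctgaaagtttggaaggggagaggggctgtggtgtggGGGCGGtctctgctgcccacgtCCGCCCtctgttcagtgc
Stub1, chr17:25832971-25833000, minus strand: tccgcctttgctCACGTGtccccatgccag
Usp36, chr11:118290245-118290494, minus strand: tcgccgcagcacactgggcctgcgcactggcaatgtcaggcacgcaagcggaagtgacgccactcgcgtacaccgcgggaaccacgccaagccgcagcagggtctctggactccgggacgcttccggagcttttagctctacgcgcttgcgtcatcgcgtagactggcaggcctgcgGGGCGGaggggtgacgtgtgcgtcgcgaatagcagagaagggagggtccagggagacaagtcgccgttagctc
Gsk3b, chr16:38088751-38089000, plus strand: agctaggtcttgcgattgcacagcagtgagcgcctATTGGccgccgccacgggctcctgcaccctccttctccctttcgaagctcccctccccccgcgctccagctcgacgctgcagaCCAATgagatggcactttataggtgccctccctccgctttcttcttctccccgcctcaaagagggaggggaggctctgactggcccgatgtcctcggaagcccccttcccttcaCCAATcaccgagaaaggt

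For Stub1, the 30 bases around the E-box are shown, which lie in the 5′ UTR of a longer annotated Stub1 transcript. An E-box was found in 1 of the 11 windows, that of Stub1, 69 bases before the start, compared with 7.15% of all 32851 windows. CCAAT was found in 3 of 11 windows (37.4% of all windows), with 4 copies at Gsk3b and 1 each at Usp28 and Skp2. GGGCGG was found in 8 of 11 windows (35.7% of all windows), with 6 copies at Usp28 and 5 at Stub1, and none at Gsk3b. Motifs were searched on both strands of windows that reach from 250 bases before to 50 bases after the start, and a match describes the letters only.

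The deposited unit had to be settled before levels could be compared. The authors' values are normalized FPK, reads per kilobase divided by the signal of ERCC spike-in RNA that was added in proportion to cell number, so they refer to the cell and not to the library. They summed to 46321 and 48291 in the low-MYC and to 102853 and 109090 in the high-MYC libraries. The values were whole multiples of 1 step per library, within a tolerance of 0.05 of a step, for 80.9% to 81.9% of low values when multiplied by the genomic span of the gene, introns included, and for only 10.2% to 11.1% when multiplied by its exonic or longest transcript length (the tolerance itself covers 10%). The length divided out was thus the span, although the methods name transcript length. Taking the step as 1 read gave about 87600000 to 96200000 reads per library, with 1649 to 36948 reads for each of the 8 genes in each library, a counting error of 0.520% to 2.46%. Dividing by the span lowers intron-rich genes: exons make up 4.30% of Fbxw7 and 6.26% of Gsk3b, but 88.3% of Stub1.

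Stub1 and Huwe1 had the most abundant mRNAs among the 8 per exonic kilobase, followed by Gsk3b. This scale takes every read as exonic, which was not tested. In the deposited values Stub1 and Huwe1 also led, but Usp36 stood above Gsk3b (means of 0.431 and 0.365 in low-MYC cells). Per exonic kilobase, and relative to the spike-in, the level of Stub1 averaged 10.8 ± 0.105 in the low pool and 26.4 ± 0.306 in the high pool (mean ± SD, n = 2), that of Huwe1 6.52 ± 0.493 and 15.4 ± 1.09, and that of Gsk3b 5.83 ± 0.232 and 12.4 ± 0.830. The other 5 lay close together. On the same scale Usp36 stood at 1.71 ± 0.01005 and 3.66 ± 0.0890, Fbxw7 at 1.56 ± 0.00978 and 3.02 ± 0.240, and Skp2 at 1.35 ± 0.0125 and 3.19 ± 0.160. Usp28 stood at 1.29 ± 0.0807 and 2.97 ± 0.278, and Usp37 was lowest at 1.08 ± 0.0787 and 2.49 ± 0.212. In low-MYC cells the libraries of Skp2 and Usp28 overlapped, and the other neighbours in this order did not. In high-MYC cells Skp2, Fbxw7 and Usp28 could not be ranked, because the libraries of each overlapped with the next. The spread between the highest and the lowest of the 8 in low-MYC cells was 9.96-fold per exonic kilobase and 142-fold in the deposited values, in which Fbxw7 was last of the 8. Myc itself had 18.0 and 18.1 in the low-MYC and 37.2 and 37.6 in the high-MYC libraries per exonic kilobase.

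**Figure D1:**
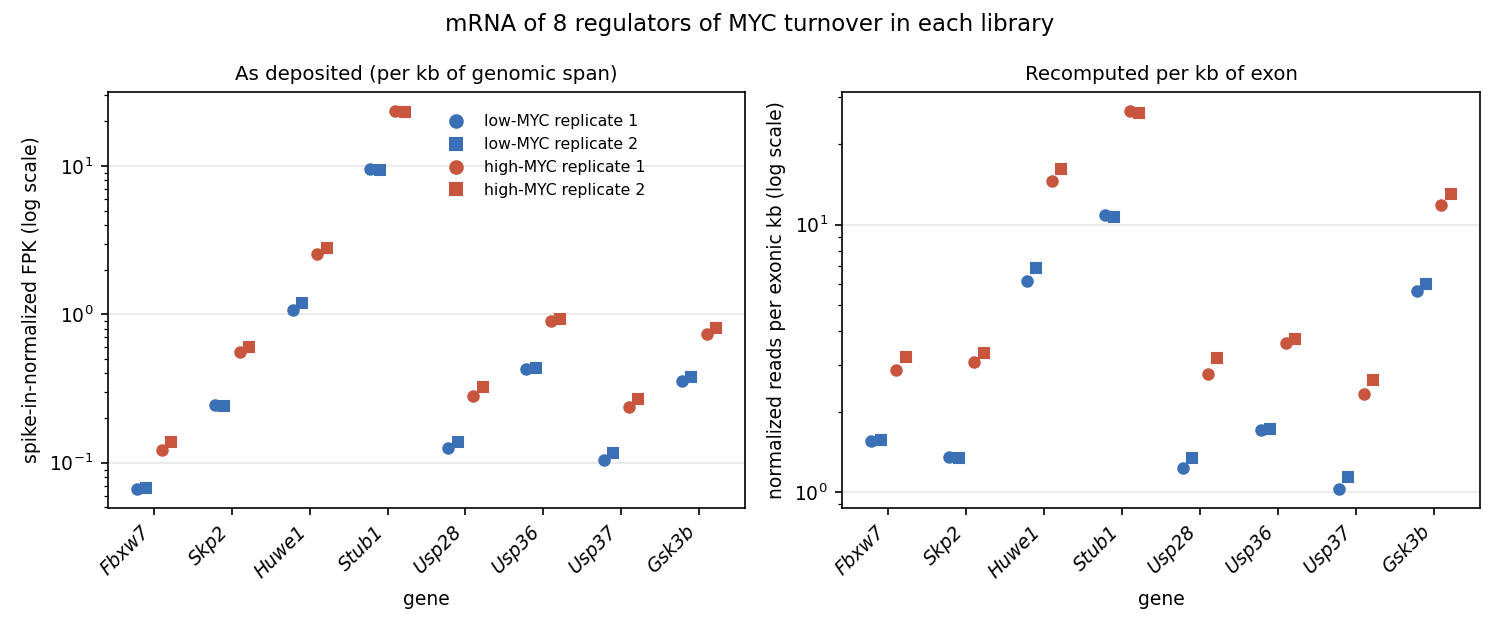
mRNA of the 8 genes in each of the 4 libraries, as deposited (left, spike-in-normalized FPK) and recomputed per kilobase of exon (right), both on log axes, with 1 point per library. Every gene is higher in both high-MYC libraries than in both low-MYC libraries, and Fbxw7, lowest of the 8 on the left, lies among Skp2, Usp28 and Usp36 on the right.

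Relative to the spike-in RNA, all 8 mRNAs were more abundant in high-MYC than in low-MYC cells, and the libraries of the groups did not overlap for any of them, as was true of 99.0% of the genes tested. The ratio of the group means ran from 1.94 for Fbxw7 to 2.45 for Stub1. A ratio of at least 2 was found for 7 of the 8, beside 88.8% of the genes tested, and Fbxw7 was the one below it. In limma on log2(normalized FPK + 0.1), 7 of the 8 had a mean of at least 0.1 and could be tested, and 7 of 7 were higher at an adjusted p under 0.01, beside 97.1% of 11870 genes. Under the further limit of 2-fold, 2 of 7 were called, Huwe1 and Stub1, beside 55.1% of genes. That last count follows the pseudocount, which weighs on genes with low deposited values: it was 7 with a pseudocount of 0.01 and 1 with a pseudocount of 1. The median log2 fold change was 0.94 for the 7 members and 1.03 for all genes tested (5th to 95th percentile 0.59 to 1.35). In bulk RNA, fewer cells of a type and less RNA per cell cannot be told apart, and a difference common to nearly all genes cannot be told apart from one in the spike-in score.

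The ligases had different log2 fold changes, which were not tested against each other. Fbxw7 (chr3:84815268-84979198, plus strand) had deposited values of 0.0667 and 0.0673 in low-MYC and 0.123 and 0.137 in high-MYC libraries. Its mean of 0.0984 lay just under the minimum, so that it was not among the genes tested, and in the fit of all 19769 genes its log2 fold change was 0.46 ± 0.0485 (SE, adjusted p = 0.00209 by limma). Without either low-MYC library that adjusted p was 0.0208 and 0.0201. Skp2 (chr15:9111985-9155425, minus strand) had 0.246 and 0.242 against 0.558 and 0.599, a log2 fold change of 0.98 ± 0.0575 (adjusted p = 2.1e-05 by limma). The pseudocount of 0.1 exceeds the low-MYC values of Fbxw7 and lowers its log2 fold change more than that of Skp2. Without a pseudocount the log2 ratios of the group means were 0.954 for Fbxw7 and 1.24 for Skp2. The high-MYC values of both genes lay above the low-MYC ones, as for 99.0% of the genes tested.

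Huwe1 (chrX:151800807-151935417, plus strand) had deposited values of 1.08 and 1.20 in low-MYC and 2.55 and 2.82 in high-MYC libraries, a log2 fold change of 1.17 ± 0.0750 (adjusted p = 2.7e-05 by limma). Stub1 (chr17:25830505-25833404, minus strand) had 9.60 and 9.47 against 23.5 and 23.1, and its 1.28 ± 0.0396 (adjusted p = 1.0e-05) was the largest log2 fold change among the 7 tested. Both exceeded the median gene on this scale, on which the pseudocount weighs less on genes with high deposited values. In the reads recovered below, neither passed relative to the median gene.

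The deubiquitinases had ratios of group means between those of Fbxw7 and Stub1. Usp28 (chr9:48985375-49042517, plus strand) had 0.126 and 0.137 in low-MYC and 0.283 and 0.323 in high-MYC libraries, a ratio of means of 2.30. Usp36 (chr11:118259651-118290244, minus strand) had 0.429 and 0.433 against 0.904 and 0.936, a ratio of 2.13. Usp37 (chr1:74435511-74544284, minus strand) had 0.105 and 0.116 against 0.238 and 0.268, a ratio of 2.29. In each of the 3 the lower high-MYC library was above the higher low-MYC library, as for 99.0% of the genes tested. Their adjusted p-values by limma were 1.1e-04, 1.6e-05 and 1.3e-04, beside 97.1% of genes called higher. Their log2 fold changes with the pseudocount of 0.1 were 0.80 ± 0.0734, 0.94 ± 0.0498 and 0.75 ± 0.0711, an order that goes with their deposited levels.

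Gsk3b (chr16:38089001-38246084, plus strand), the kinase that prepares MYC for FBXW7, had 0.355 and 0.375 in low-MYC and 0.740 and 0.813 in high-MYC libraries. Its ratio of means was 2.13 and its log2 fold change 0.91 ± 0.0646 (adjusted p = 3.8e-05 by limma). Myc, for reference, had 9.81 and 9.86 against 20.3 and 20.5, a ratio of 2.07. Both ratios were below the 2.27 of the median gene in the reads recovered below.

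Since nearly every gene was higher, each was also set against the median gene. With each library scaled to the same median, 0 of 7 members passed limma at an adjusted p under 0.01, beside 2.29% of genes, and 0 of 7 had an unadjusted p under 0.05. The differences on this scale ran from -0.08 for Gsk3b to 0.11 for Stub1 in log2 units, and Usp36 and Gsk3b, higher relative to the spike-in, were lower than the median gene. Fbxw7 was again outside this test. In the fit of all genes it stood at -0.12 ± 0.0351 (adjusted p = 0.155 by limma), where the pseudocount exceeds its own low-MYC values.

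The reads recovered from the span removed that weight of the pseudocount, in a fit chosen after seeing the data. With a mean of at least 50 reads and a pseudocount of 1 read, 13557 genes including all 8 members could be tested, and the median gene was 2.27-fold higher in high-MYC cells (log2 1.18, 5th to 95th percentile 0.89 to 1.72). On the spike-in scale 7 of 8 members were called at least 2-fold higher, beside 88.6% of genes, with a median log2 fold change of 1.20 for the members. Fbxw7 was the exception at 0.95 ± 0.0682 (adjusted p = 3.9e-12 by limma), at percentile 7.60 of all genes. Stub1 was at percentile 74.2 with 1.29 ± 0.0610, and Skp2 at percentile 65.9 with 1.24 ± 0.0652.

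Relative to the median gene, 1 of 8 members passed in the recovered reads, and it was Fbxw7, which was lower. The share of all genes called lower in that fit was 10.5%, and the share called higher was 12.2%. Fbxw7 had 2512 and 2526 reads in the low-MYC and 2057 and 2035 in the high-MYC libraries, and the groups did not overlap. The library totals were about 93700000 and 96200000 reads in the low-MYC and 93400000 and 87600000 in the high-MYC libraries. These reads of Fbxw7 are not scaled to the totals, and the share of all genes without overlap in such reads was not computed. The log2 fold change of Fbxw7 relative to the median gene was -0.25 ± 0.0505 (adjusted p = 0.000413 by limma). It ran from -0.20 to -0.29 when each library in turn was left out, with adjusted p-values from 8.7e-06 to 0.00618, but without the trend in eBayes the adjusted p was 0.0378, which does not pass. Among the 1305 genes whose span was at least 20 times their exons, as that of Fbxw7 was (23.3 times), the share called lower was 12.0% and the median log2 fold change relative to all genes was 0.01. The other 7 members did not pass. Of all 8, Fbxw7 included, 4 were above the median gene and 4 below. Stub1 was at 0.09 ± 0.0437 (adjusted p = 0.102), Skp2 at 0.05 ± 0.0488, Huwe1 at 0.04 ± 0.0433, and Usp28 and Usp37 at 0.00 ± 0.0571 and -0.00 ± 0.0523. Usp36 was at -0.10 ± 0.0468 (adjusted p = 0.0882) and Gsk3b at -0.11 ± 0.0405 (adjusted p = 0.0363). Myc was lower than the median gene by this fit, at -0.15 ± 0.0401 (adjusted p = 0.00583). With the deposited values scaled to the same median, Myc did not pass (-0.13, adjusted p = 0.105 by limma).

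**Figure D2:**
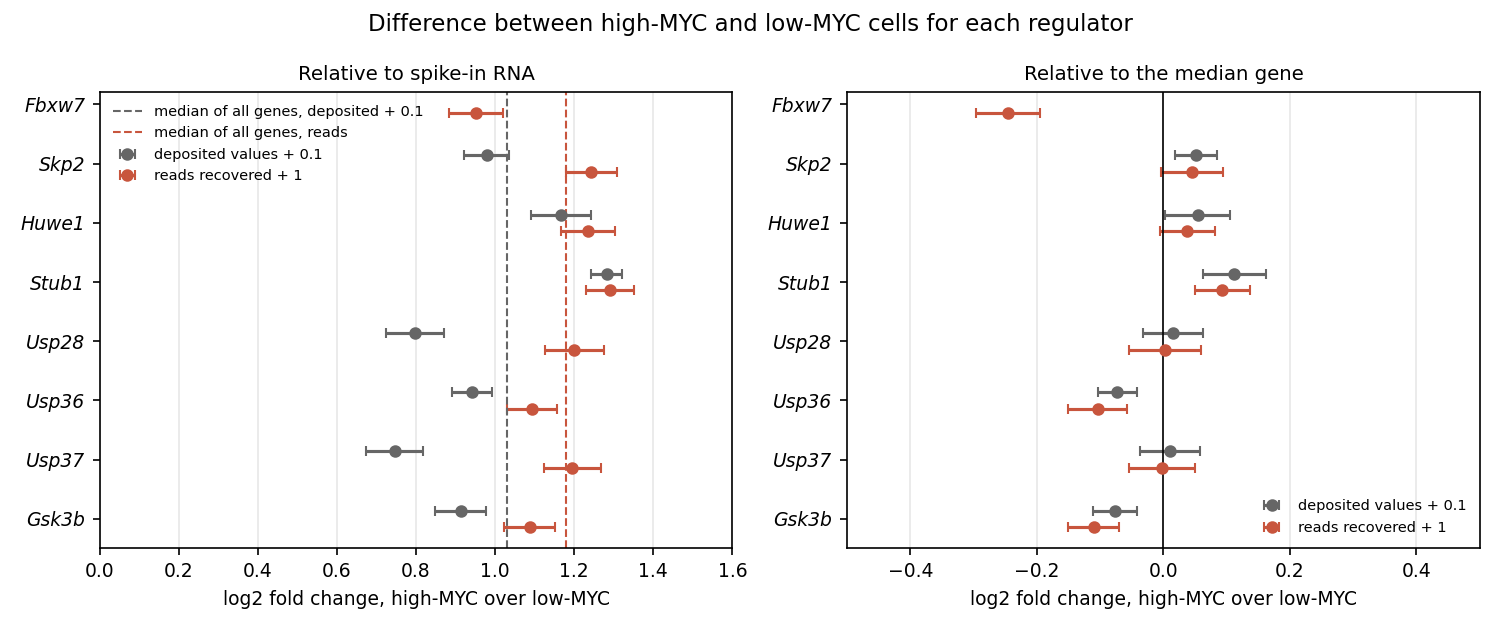
log2 fold change of each gene (points, with bars of 1 SE) relative to the spike-in RNA (left, dashed lines mark the medians of all genes) and relative to the median gene (right), from the deposited values plus 0.1 and from the recovered reads plus 1. Fbxw7 has no point from the deposited values because its mean is under 0.1, and in the reads it lies at -0.25 relative to the median gene while the other 7 lie between -0.11 and 0.09.

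Ratios within a library need no scaling between libraries, and a few are given as a description. They were taken after the values had been seen. The ratios of Usp28 and Stub1 have Fbxw7, the member with the smallest ratio between groups, in the denominator. Their difference between groups therefore restates that choice. The ratio of Fbxw7 to Myc has Fbxw7 in the numerator. The ratio of Usp28 to Fbxw7 mRNA per exonic kilobase, the deubiquitinase and the receptor through which it reaches MYC, was 0.793 and 0.859 in the low-MYC libraries and 0.971 and 0.991 in the high-MYC libraries. The ratio of Stub1 to Fbxw7 on the same scale was 7.002 and 6.85 in low-MYC and 9.34 and 8.21 in high-MYC libraries. The ratio of Fbxw7 to Myc was 0.0863 and 0.0866 in low-MYC and 0.0766 and 0.0849 in high-MYC libraries, and the 2 high-MYC libraries differed more from each other than the nearer one did from the low-MYC libraries.

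Some reads of these genes could belong to a neighbour. Skp2 overlaps Lmbrd2 on the opposite strand over 14876 bases, Stub1 overlaps Jmjd8 over 1339 of its 2900 bases, and Usp37 overlaps Cnot9 over 24785 bases. The libraries were stranded, but the use of strand in counting is not stated, so the values of Skp2, Stub1 and Usp37 are uncertain to that extent. Fbxw7 lies within the span of the gene model Gm37240 on the other strand, which held a mean of 129 reads.

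The genes whose pattern over the 4 libraries was most like that of the tested members with the largest and the smallest log2 fold change were sought by Euclidean distance between centred log2 values. For Stub1 they were Flot2, Ckb and Oaz1, at distances of 0.00671, 0.00932 and 0.00980. For Usp37 they were Nectin3, Rnf130 and Itgb3, at 0.00769, 0.00799 and 0.0145. Within a distance of 0.05 there were 160 other genes for Stub1 and 178 for Usp37, so that these patterns were common ones.

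The wider machinery of MYC turnover was called higher about as often as other genes. Of 58 genes in the lists around the 8 members, 56 could be tested on the deposited values, 54 were higher and 2 were lower at an adjusted p under 0.01, beside 97.1% of all genes called higher, and the median log2 fold change was 1.08, beside 1.03 for all genes tested. With each library at the same median, 0 were higher and 2 were lower by limma, beside 2.29% of all genes called in either direction. At an unadjusted p under 0.05 there were 7 higher and 13 lower. No share of all genes was computed at that unadjusted limit, for these or the other counts given at it. In the recovered reads relative to the median gene, 4 of 58 were higher and 7 were lower, beside 12.2% and 10.5% of all genes. These shares, and 97.1% on the spike-in scale, also stand beside the counts of each list below. The calls in the reads depend on the trend in eBayes. With it 22.7% of all genes were called in either direction, and without it 5.54%. The genes of the lists were not checked without it.

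Among 10 other ligases that act on MYC, 9 of 9 tested were higher, from Fbxo32 at 0.95 to Spop, the receptor of a CUL3 ligase, at 1.25 in log2 fold change. In the reads Fbxl14 was lower than the median gene (-0.17, adjusted p = 0.00840 by limma) and the others did not pass, Btrc among them at 0.06. The 7 SCF core genes and cofactors were all higher, with Cks1b, the partner of SKP2 in binding p27, at 1.28 and Cul1, the scaffold, at 1.05. By limma 0 of the 7 passed relative to the median gene in either fit, with 1 at an unadjusted p under 0.05 on the deposited values and 2 in the reads. Of 4 other deubiquitinases, 3 of 3 tested were higher and 0 of 4 passed relative to the median gene in the reads by limma (1 at an unadjusted p under 0.05), from Usp7 at -0.12 to Usp22, a subunit of SAGA, at -0.02.

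The 8 kinases that act on MYC stability were all higher on the spike-in scale, beside 97.1% of all genes. Their log2 fold changes ran from 1.00 for Dyrk2 to 1.32 for Plk1. In the reads relative to the median gene, the mitotic kinases Plk1 and Aurka were higher (0.18 and 0.18, adjusted p = 0.00288 and 0.00226 by limma). Dyrk2, a priming kinase, was lower (-0.15, adjusted p = 0.00760 by limma). All genes were called higher in 12.2% and lower in 10.5% in that fit. With the deposited values scaled to the same median, Plk1, Aurka and Dyrk2 did not pass (adjusted p = 0.0560, 0.0451 and 0.0553 by limma). Of the 8 genes of the PP2A phosphatase arm, 8 of 8 were higher on the spike-in scale, and in the reads the catalytic subunit Ppp2cb was lower than the median gene (-0.19, adjusted p = 0.00110).

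The mRNAs of other substrates of these ligases were measured too. All 8 of 8 other FBXW7 substrates were higher relative to the spike-in, beside 97.1% of all genes. In the reads relative to the median gene, the cyclin E genes Ccne1 and Ccne2 were higher by 0.29 and 0.21 (adjusted p = 1.0e-05 and 0.000593 by limma). Jun, which encodes an AP-1 subunit, was lower at -0.27 (adjusted p = 6.1e-06 by limma). All genes were called higher in 12.2% and lower in 10.5% in that fit. With the deposited values scaled to the same median, Ccne1, Ccne2 and Jun did not pass (adjusted p = 0.0182, 0.0475 and 0.0291 by limma). The 7 other SKP2 substrates were all higher on the spike-in scale and 0 passed relative to the median gene by limma (2 in the reads at an unadjusted p under 0.05), with Cdkn1b, which encodes p27, at -0.05.

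Among the 6 chaperone partners of STUB1, 4 were higher and 2 were lower, with a median log2 fold change of 1.05 for the list. Hspa1a and Hspa1b, the stress-inducible HSP70 genes, were lower in high-MYC cells even relative to the spike-in. Hspa1a fell from a mean of 2.23 to 1.70 normalized FPK and Hspa1b from 5.54 to 4.52, with log2 fold changes of -0.38 and -0.29 (adjusted p = 0.00237 and 0.00603 by limma). They are near-identical copies, so their reads cannot be divided between them with certainty. The other 4 partners, constitutive Hspa8, Hspa4 and the HSP90 genes Hsp90aa1 and Hsp90ab1, were higher, by 1.04 to 1.07. In the reads relative to the median gene, Hspa1a and Hspa1b were at -1.59 and -1.49 and Hspa8 was lower at -0.16 (adjusted p = 0.00455).

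**Figure D3:**
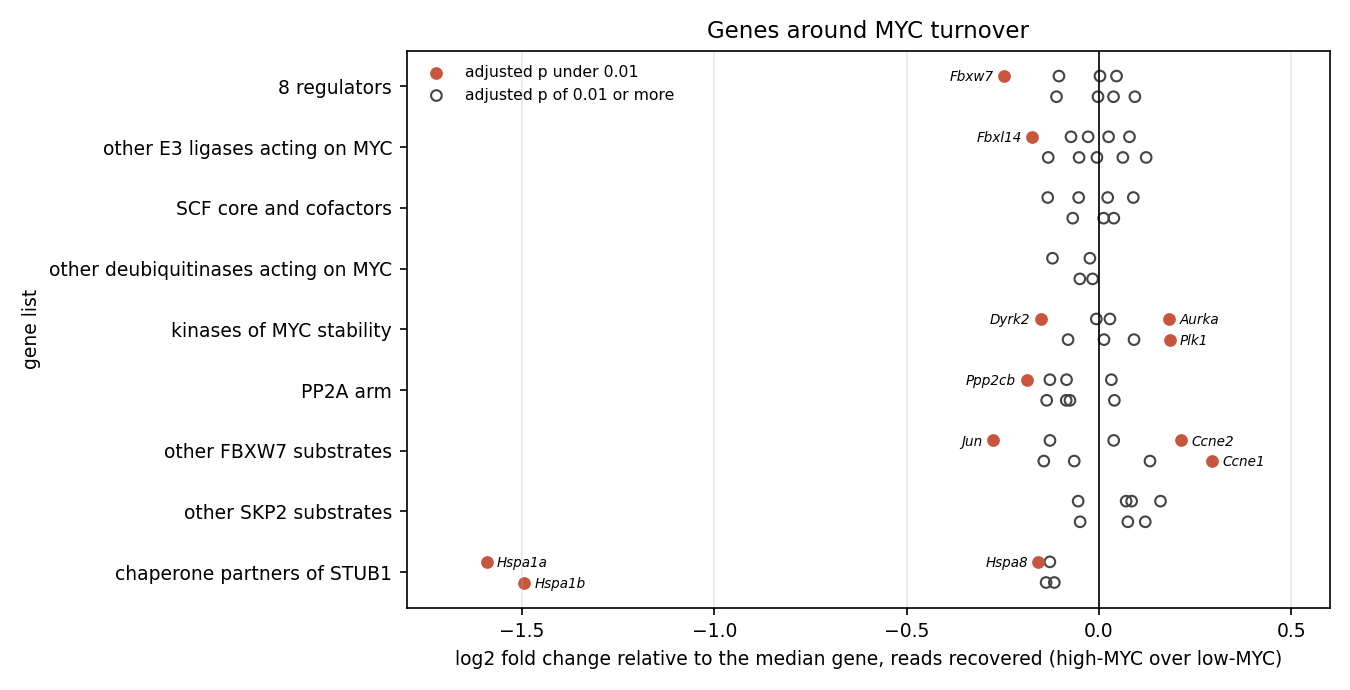
log2 fold change relative to the median gene, from the recovered reads, of the 8 regulators and of the lists around them, with 1 point per gene and filled points at an adjusted p under 0.01. Most genes lie within 0.2 of the median gene, and Hspa1a and Hspa1b lie apart at -1.59 and -1.49.

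The cell type was checked against its markers. All 10 fibroblast markers were present and called higher in high-MYC cells, beside 97.1% of genes tested. With each library at the same median, 3 of the 10 were called higher, beside 2.29% of genes called in either direction. The 10 markers summed to 334 and 339 normalized FPK in low-MYC and 802 and 818 in high-MYC libraries. Macrophage markers also moved with the groups: 10 of the 14 could be tested and all 10 were higher on both scales, and their summed level was 0.643 and 0.889 in low-MYC and 28.0 and 29.4 in high-MYC libraries. Lyz2, a lysozyme of myeloid cells, had means of 0.0861 and 18.5, and Csf1r had 0.0337 and 0.309. The part of these cells in the values of the 8 genes was not tested. The defining endothelial gene Pecam1 had means of 0.000294 and 0.000823, the epithelial genes Epcam and Cdh1 had at most 0.00953 and 0.000739, while Kdr and Krt18 reached 0.272 and 0.279 in high-MYC cells. Lymphocyte markers are not analysed here.

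Accessible-chromatin reads were listed at a start of every one of the 8 genes. Of 11 annotated starts 9 had reads within 500 bp, compared with 38.2% of all windows, whose median was 113 reads where any was found. All 8 genes were expressed, and the share among the starts of expressed genes was not computed. Gsk3b had 790 reads within 500 bp of its start, the most of the 8. The shorter window searched for motifs there held 4 CCAAT boxes and no GC box. Stub1 had 339, Usp36 325, Usp28 235, Usp37 202 and Huwe1 157. Fbxw7 and Skp2 had reads at some of their starts only. Of the 3 starts of Fbxw7, the one that follows the printed bases had 109 reads. The most upstream one had 35 and the middle one had 0. Of the starts of Skp2, the one at chr15:9140454 had 161 and the one at chr15:9155425 had 0. The table of 4881417 reads has no column that names a library, and although its name mentions wild type, the labels of all 4 TACh-seq samples, wild-type and knockout, cite it. Therefore wild-type cells and those lacking Fubp1 and depleted of Fubp2 could not be compared, and the depth behind each start is unknown.

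**Figure D4:**
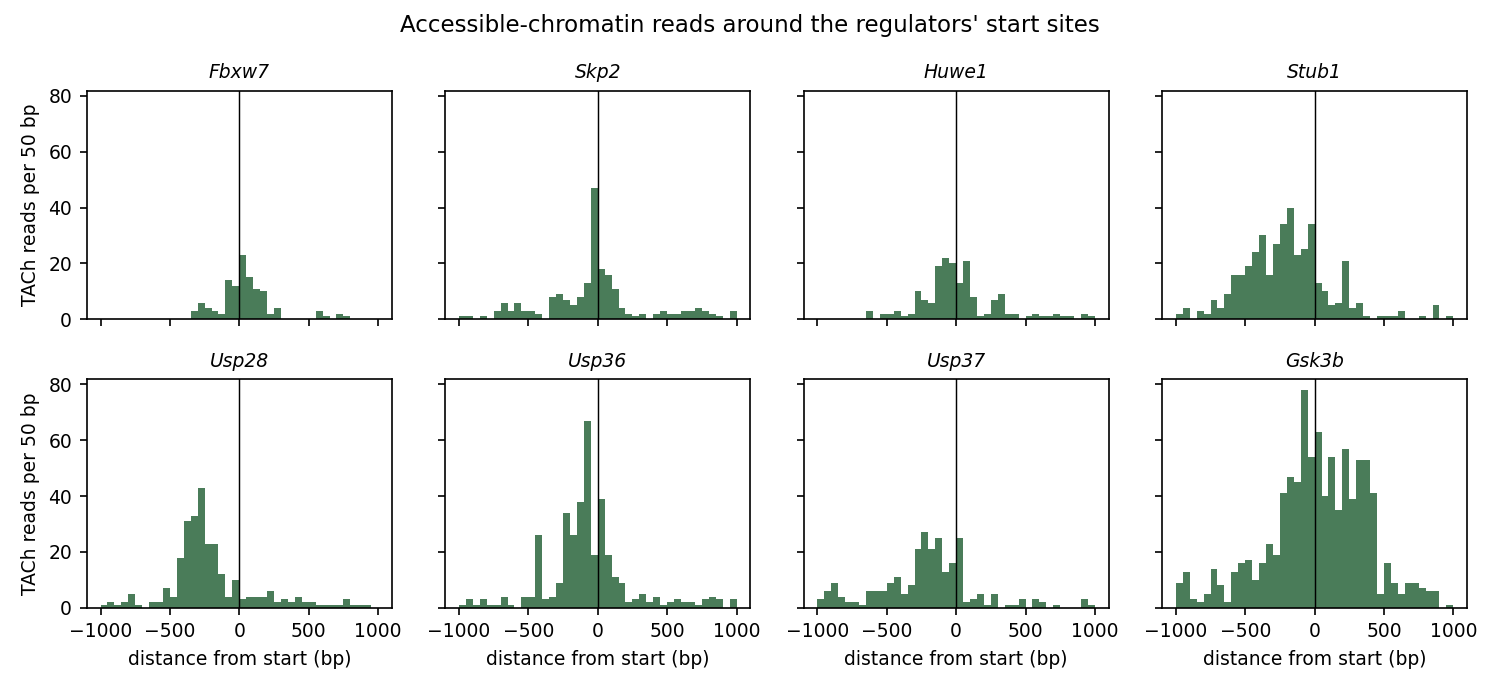
Accessible-chromatin reads per 50 bp against the distance in bp from the start (black line, negative before it), at the start with the most reads for each of the 8 genes. Reads gather near each start, with up to 78 per bin at Gsk3b and up to 23 at Fbxw7.

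FUBP1, the single-strand DNA-binding protein the study centres on, had 166 peaks in the deposited list, which all lay on chromosome 15 and are fewer than the peaks the study describes. Skp2 was the 1 member on that chromosome, and 0 of these peaks overlapped it, which covers this list only. The nearest peak, at chr15:9103801-9108800, lay in Nadk2, 3184 bases from the end of Skp2. The other 7 genes are on chromosomes for which the list holds no peak, so nothing can be said of FUBP1 there.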

How the data were processed

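mRNA of MEFs sorted for low or high MYC had been sequenced, with 2 technical replicates in either group and 4 libraries in all. The authors trimmed reads, aligned them to the mm10 transcriptome with TopHat, quantified them with the Partek E/M algorithm and divided by length and by an ERCC spike-in score. The deposited signal is this normalized FPK. Per the labels the length is that of the transcript, and the values showed the genomic span. Versions are not given in the sources used here. From the deposited signal, log2(value + 0.1) of genes with a mean of at least 0.1 was compared with limma 3.58.1 (lmFit, eBayes with trend, Benjamini-Hochberg over all genes) in R 4.3.3, with a second fit after scaling each library to the same median. Reads were recovered as value times span over the step. Exon lengths came from GENCODE M21. The authors called FUBP1 peaks with SICER. The deposited peak list and TACh reads give positions, and no column names a library. The TACh comparison is not analysed here, and 1 gene of the lists is not reported here.

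The 8 members and the lists were chosen with earlier results of these data known. Genes named are the members, Myc, the genes of the lists with the highest and lowest log2 fold change or past the threshold relative to the median gene, and the 3 genes most like the members with the highest and lowest log2 fold change. Other genes were named after their values were seen. The procedure was tested on simulated data. Alternative settings were another pseudocount, filter, trend and scaling, a replicate block and the removal of each library. Python 3.11.15 with pandas 2.3.3, numpy 2.4.6 and matplotlib 3.10.9 was used otherwise. Replicates differed beyond counting noise (chi-square per degree of freedom of 5.65 and 7.77), so none was counted as a duplicate.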

Additional observations from a re-analysis of the deposited data

How the results depend on the processing

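The direction relative to the spike-in held for the members tested under each pseudocount, minimum mean, trend setting and left-out library. With each library at the same total or the same median, 0 members and 0 genes of the turnover lists were called higher, and 0 members at 2-fold, and the log2 fold change of Usp36 was -0.0599 and -0.0729 and that of Gsk3b -0.0637 and -0.0765. Members called at least 2-fold numbered 2, against 7 with a pseudocount of 0.01, 1 with a pseudocount of 1, 7 by the ratio of group means and 7 in the recovered reads, and 2 to 3 when a library was left out. Members called higher numbered 7, against 2 with a minimum mean of 1, under which Fbxw7 and the other low members gave no value, and 7 to 8 when a library was left out. Members changed relative to the median gene numbered 0 under the alternatives run on the deposited values and 1 in the recovered reads. Of the single-gene values, 86 kept their side of the threshold, 13 lost it in the same direction and 4 reversed, the values of Usp36 and Gsk3b above. With 2 technical replicates per group a lone library left in a group is assumed to vary like the other group, and depth limits little, since each member held at least 1649 reads in a library.

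The labels number the replicates 1 and 2 in both groups. Deviations of libraries that share a number correlated at 0.08, so the numbers were not taken as pairs. With the replicate block, 2 members were called at 2-fold, 7 were called higher, 0 changed relative to the median gene and 54 genes of the lists were higher, and 11607 genes were called in all. In the recovered reads with the block, Stub1 (0.09, adjusted p = 0.00791 by limma) and Gsk3b (-0.11, adjusted p = 0.000443) also passed relative to the median gene, beside Fbxw7 (-0.25, adjusted p = 1.6e-05), so that 3 of 8 members passed beside 35.6% of all genes.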

Other observations

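Fbxw7 was not alone in being kept out of the test by the length used. Of 7899 genes with a deposited mean under 0.1, 394 had a mean of at least 1000 recovered reads. Their span was 29.2 times their exonic length in the median, compared with 3.95 times among the 11870 genes tested. The 8 regulators had a median of 7.76.

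In the recovered reads relative to the median gene, 6 of 10 fibroblast markers and 13 of 13 macrophage markers tested were higher, beside 12.2% of all genes. Lum and Dcn, which encode small leucine-rich proteoglycans of the matrix, were at 1.39 and 0.97 in log2 fold change.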
